A study of Mus musculus with 2 samples.

Results

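Genomic imprinting is the expression of a gene from the copy inherited from only 1 parent. The 36 imprinted genes described here were taken by their mouse symbols, each with its gene body and 50 kb on either side, from 32093 protein-coding and non-coding RNA genes of the GENCODE annotation. They comprise 29 protein-coding genes and 7 genes of non-coding RNAs, and their territories merge into 21 loci with a total length of 4.77 Mb. Membership rests on the symbol and not on a measured value, but the list was drawn up with earlier results of these data known.

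Chromatin of the left cerebral cortex was profiled by DNase-seq, an assay in which the enzyme DNase I cuts accessible DNA and the cut sites are sequenced. Regions cut more than their surroundings are called DNase I hypersensitive sites (DHSs). There was 1 group: untreated tissue of female B6CASTF1/J mice, 4 days old, an F1 hybrid of the strains C57BL/6J and CAST/EiJ. It has 2 libraries, replicate 1 and replicate 2, from animals that the labels number separately under a single donor entry. The deposited calls do not separate the parental copies, so a call says that a sequence was accessible on at least 1 copy and not on which. The tissue was taken whole, so fewer accessible cells and less cutting per cell cannot be told apart.

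Each library came with a shorter, stricter peak list and a longer, lenient one, and each call carries the authors' signal value, a measure of cut density. The strict lists held 59355 calls in replicate 1 and 46566 in replicate 2, and the lenient lists 92872 and 81087. A shared DHS is a union of overlapping strict calls with a call of each library, and there were 26012 of these, of which 99 lay in the imprinted loci. Footprints, short stretches protected from cutting inside accessible DNA, numbered 153911 in replicate 1 and 224652 in replicate 2. Strict calls with a signal value under 0.3 made up 42.5% of replicate 1 and 2.39% of replicate 2, so the libraries stand apart in their weakest calls and their values are given side by side. Among marker genes of cortical excitatory neurons, Tbr1 and Mef2c had a shared DHS at a promoter, and Emx1, Emx2, Neurod2, Neurod6 and Bcl11b had none. Each of those without had a strict promoter call in replicate 2 only. Among markers of other tissues the counts were 2 of 8 for choroid plexus and meninges, 1 of 5 for endothelium and 0 of 4 for liver. Otx2 and Kl, of the choroid plexus and meninges list, likewise had a strict call in replicate 2 only. Over all protein-coding genes the share with a shared promoter DHS was 55.7%.

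Imprinted expression starts from germline control regions, CpG-rich stretches that are methylated in either the egg or the sperm and keep that mark in every tissue of the offspring. In most of them the mark comes from the egg, and the unmethylated paternal copy is an active promoter. The zinc finger protein ZFP57 binds the methylated hexamer TGCCGC and keeps the mark. At H19, the insulator protein CTCF binds the unmethylated maternal copy instead. Brain is one of the tissues with the most imprinted expression, and several of these genes act in neuronal growth, feeding or synapse formation.

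The sequences below are motif matches and regions of the imprinted loci, some in accessible DNA and some not. Whether access depends on them was not tested. They are read from the C57BL/6J reference (GRCm38, the mm10 build), 5′ to 3′ on the strand named, in lower case with the motif in capitals. The CAST/EiJ copy of these hybrid animals was not read and may differ. The control region upstream of H19, which is paternally methylated and insulates Igf2 on the maternal copy, held 3 matches to the CTCF site of the type known from H19 (14 letters, of which 2 may vary), all on the minus strand:
H19 site at chr7:142580299-142580332: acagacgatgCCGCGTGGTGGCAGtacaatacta
H19 site at chr7:142580754-142580787: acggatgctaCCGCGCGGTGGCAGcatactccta
H19 site at chr7:142582024-142582057: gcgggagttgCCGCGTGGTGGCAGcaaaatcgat

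The intron downstream of the Peg3 start held 12 matches to AANATGGC, the core of the site of the zinc finger protein YY1, all on the plus strand within 2296 bp. A match not printed, at chr7:6727291-6727318, reads AAGATGGC and lay in no call. Of the 4 printed, the first 3 lay under footprints of both libraries and the last, the 1 match that reads AAAATGGC, lay in no call:
Peg3 YY1 at chr7:6727835-6727862: atgacaagtaAAGATGGCgcccaggtgg
Peg3 YY1 at chr7:6728441-6728468: attgctggcaAAGATGGCgccaaattgg
Peg3 YY1 at chr7:6729579-6729606: tccaccctccAAGATGGCgccaactggg
Peg3 YY1 at chr7:6728253-6728280: gctgtcaatcAAAATGGCaccttcagtg

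The region between Dlk1 and Meg3, paternally methylated and intergenic, was the 1 control region with neither a call nor a footprint in either library. It held 10 TGCCGC matches, and 5 of them stood in this run on the plus strand:
Dlk1-Meg3 at chr12:109528286-109528454: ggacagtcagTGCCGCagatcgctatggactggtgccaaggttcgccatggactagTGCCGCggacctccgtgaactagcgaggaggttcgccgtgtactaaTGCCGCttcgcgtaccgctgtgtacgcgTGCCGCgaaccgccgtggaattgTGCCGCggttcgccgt

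The DHS at the Snrpn start held 2 TGCCGC matches, both on the plus strand, and the first printed was under a footprint of each library:
Snrpn ZFP57 at chr7:60005186-60005211: cgcacattttTGCCGCaatgcagggg
Snrpn ZFP57 at chr7:60005110-60005135: gcgctagtctTGCCGCaatggctcag

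Distal DHSs of the loci held 7 matches to the CTCF consensus, each under a footprint of both libraries. The 3 in the strongest DHSs are printed, the first on the plus strand and the others on the minus strand:
Blcap-Nnat CTCF at chr2:157605201-157605232: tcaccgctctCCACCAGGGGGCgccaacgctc
Usp29 CTCF at chr7:6918451-6918482: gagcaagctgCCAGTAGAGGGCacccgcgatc
Cdkn1c CTCF at chr7:143466488-143466519: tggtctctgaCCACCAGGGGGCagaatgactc

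Promoter DHSs of Nnat and Zrsr1 held the palindromic consensus of the nuclear respiratory factor NRF1, in both cases under footprints of both libraries:
Nnat NRF1 at chr2:157560042-157560071: tcccccaagcGCGCATGCGCacttaggtgg
Zrsr1 NRF1 at chr11:22972935-22972964: gccttcgactGCGCATGCGCacattcaact

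The distal DHS with the highest signal values lay 6437 bp upstream of the Trappc9 start. Its central 300 bases, plus strand, held no match to any of the 7 motifs searched, so all are in lower case:
Trappc9 upstream DHS at chr15:73067491-73067790: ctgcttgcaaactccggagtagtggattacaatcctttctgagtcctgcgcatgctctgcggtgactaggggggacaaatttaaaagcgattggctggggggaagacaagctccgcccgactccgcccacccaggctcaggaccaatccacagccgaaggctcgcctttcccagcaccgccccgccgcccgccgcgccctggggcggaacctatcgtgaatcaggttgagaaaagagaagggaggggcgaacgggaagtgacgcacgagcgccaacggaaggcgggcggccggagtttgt

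Control regions of the imprinted loci were mostly accessible, and those without a shared DHS included 3 of the 4 whose methylation is paternal. Of 19 windows placed from textbook descriptions relative to annotated starts, 15 held a shared DHS (78.9%, exact 95% interval 54.4 to 93.9%). All but 1 of the 15 are methylated on the maternal copy. The 4 windows with a paternal mark were placed upstream of a start, and the others span one. Parental mark and position therefore cannot be told apart. In the Zdbf2 window the paternal mark arises after implantation and is not a germline one. A window of 2 kb on either side of the start held a shared DHS in 55.3% of protein-coding genes, in 88.8% of those with a CpG-rich promoter, and 3.45% of 4 kb tiles of the genome held one. The windows were not drawn from methylation data of these animals, and intervals here and below cover counting error only.

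**Figure D1:**
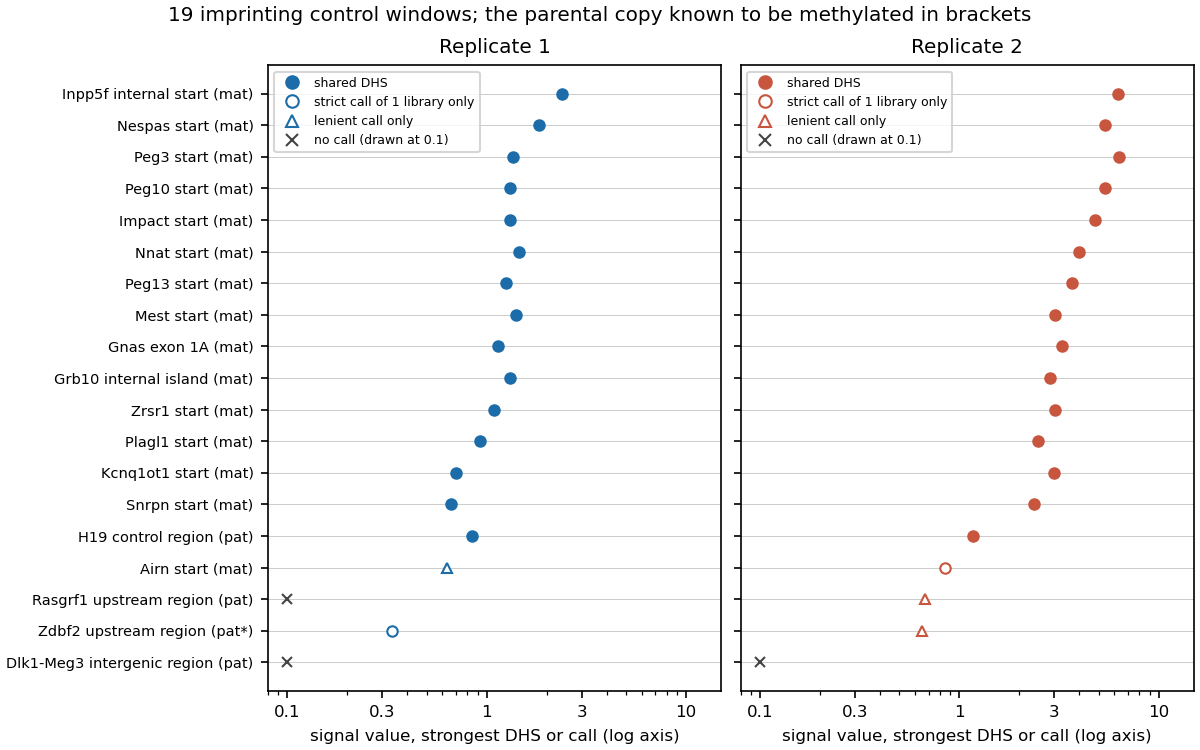
Signal value (log axis) of the strongest shared DHS, or else call, in each of the 19 control windows, in replicate 1 (left) and replicate 2 (right); filled circles are shared DHSs, open circles strict calls of 1 library, triangles lenient calls and crosses no call. The copy known to be methylated stands in brackets, with pat* for the Zdbf2 window, whose paternal mark arises after implantation. The 15 filled windows run from 0.658 to 2.40 in replicate 1 and from 1.17 to 6.30 in replicate 2.

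By the geometric mean of both libraries, the strongest control windows were those at the internal start of Inpp5f, an inositol phosphatase gene, at Nespas, an antisense RNA of the Gnas locus, and at Peg3. The Inpp5f window reached 2.40 in replicate 1 and 6.23 in replicate 2. That maximum came from the intronic DHS chr7:128690281-128690480, 1892 bp downstream of the internal start, while the DHS at the start itself had 1.26 and 3.49. The Nespas window had 1.83 and 5.35, from a DHS at 35 bp from the Nespas start, which stood above 90.8% and 95.5% of all distal shared DHSs. It was ranked among distal DHSs although it lies at a start, because Nespas is a non-coding gene outside the 36. Its rank among promoter DHSs, which have higher median signal values, was not computed.

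Of the other maternally methylated windows, Peg10, Impact and Nnat followed by that mean. At exon 1A of Gnas, an alternative first exon, the values were 1.14 and 3.28. The internal CpG island of Grb10, from which a neuronal transcript of that signalling adaptor starts, had 1.31 and 2.84 in a DHS of 840 bp, which held 4 TGCCGC matches. That DHS was centred 1790 bp downstream of the internal start. Within 1 kb of this start only replicate 2 had a strict call, of 1.76. The Peg10 window, shared with Sgce, reached 5.37 in replicate 2 and 1.31 in replicate 1. These maxima came from different DHSs: replicate 2 was highest in the Peg10 intron, 1835 bp from the start, where replicate 1 had 1.25. Windows at Mest (1.40 and 3.02), Nnat (1.46 and 3.99), Impact (1.31 and 4.79), Peg13 (1.25 and 3.66), Zrsr1 (1.09 and 3.01) and Plagl1 (0.925 and 2.47) carried their gene's own promoter DHS. The Mest maxima, too, came from different DHSs. Replicate 1 was highest 979 bp upstream of the start, where replicate 2 had 2.81, and the DHS at the start had 1.14 and 3.02. The Impact values came from a DHS centred in the intron, 1438 bp downstream of the start. The windows at Kcnq1ot1 and Snrpn had 0.700 and 2.98 and 0.658 and 2.37, the lowest values of replicate 1 among maternally methylated windows with a shared DHS.

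Among the paternally methylated windows the H19 control region alone had a shared DHS, chr7:142581736-142581940, with 0.841 in replicate 1 and 1.17 in replicate 2. It lay below the median of all distal shared DHSs, above 38.0% and 23.4% of them. None of the 3 H19-type CTCF matches printed above lay inside it. Replicate 2 had 2 further strict calls in the window, with signal values of 1.00 and 1.47, which covered the matches at chr7:142580299-142580332 and chr7:142580754-142580787, and the lenient lists of both libraries covered all 3 matches. In replicate 2 a footprint lay over each match, and in replicate 1 over the middle one. Such matches were rare, in 0.103% of promoter and 0.0438% of distal shared DHSs. There were 20 in all, of which 8 had a footprint of replicate 1 and 14 one of replicate 2. A TGCCGC match overlapped the end of the first and the last of the H19 sites.

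The intergenic region between Dlk1 and Meg3 had no call in any of the 4 lists, no base with a listed false discovery rate and no footprint. The region upstream of Rasgrf1 had no strict call, and its highest lenient call was 0.670, in replicate 2. At the start of Airn, the RNA that silences Igf2r on the paternal copy, replicate 2 had 2 strict calls with at most 0.843, and both libraries had lenient calls (0.635 in replicate 1). The window upstream of Zdbf2 went the other way: replicate 1 had 9 strict calls of 0.154 to 0.336 over 2394 bp, and replicate 2 had no strict call and a lenient call of 0.646. None of the 4 regions was accessible by the strict list of both libraries.

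**Figure D2:**
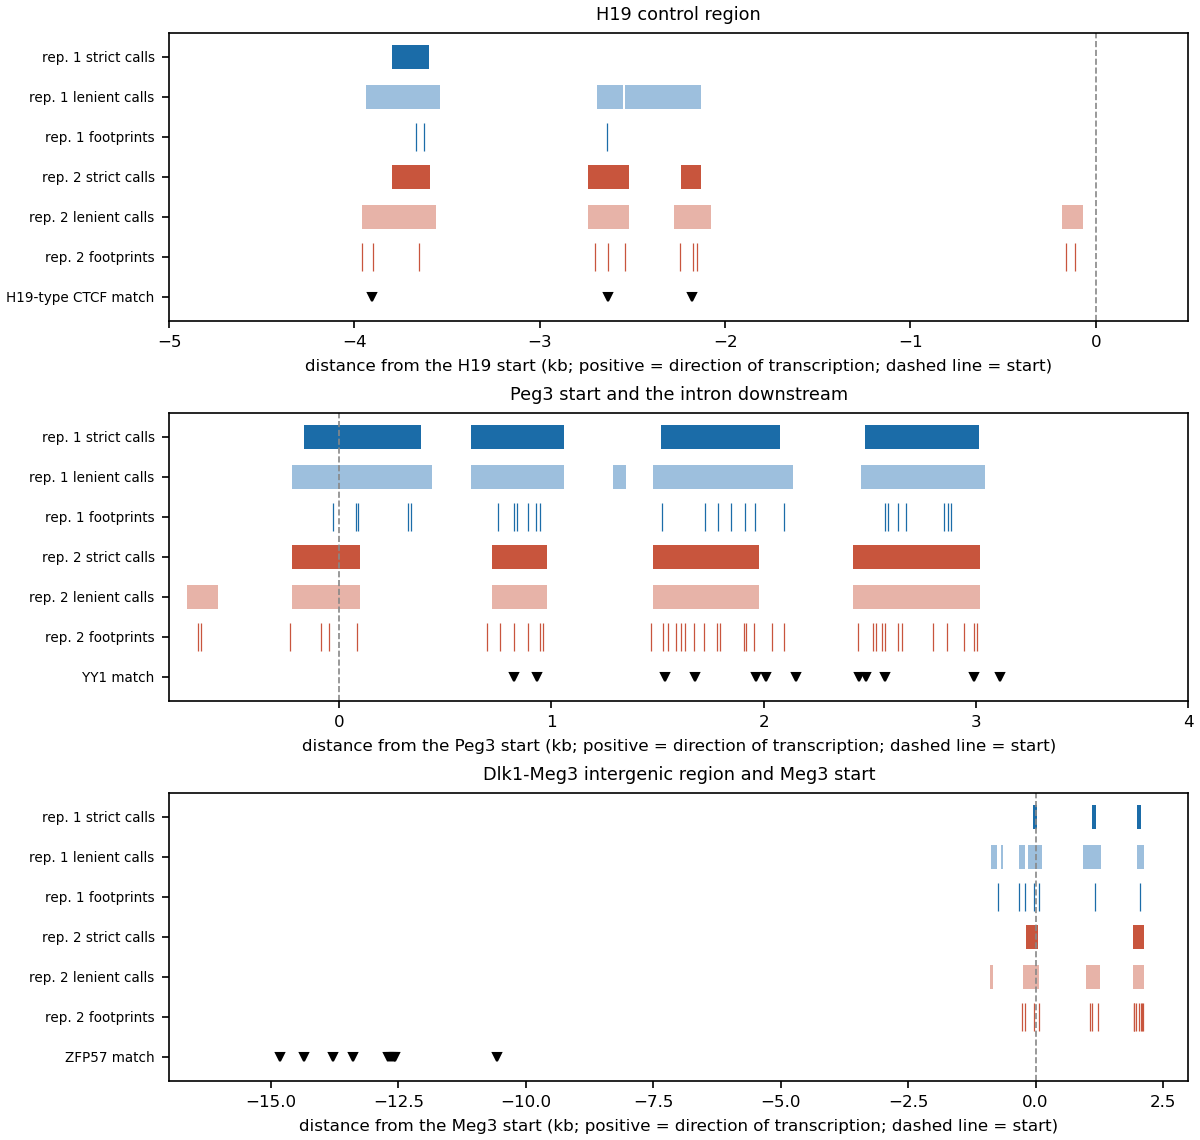
Strict calls, lenient calls and footprints of each library, and motif matches (triangles), by distance in kb from the start of H19, Peg3 and Meg3, positive in the direction of transcription. The H19 matches coincide with replicate 2 calls and footprints, the Peg3 matches run through 3 of the 4 accessible blocks, and the ZFP57 matches upstream of Meg3 lie in DNA without a call.

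All 19 windows held a TGCCGC match, 114 in total, of which 49 were inside shared DHSs. Of these 49 matches, 20.4% lay under a footprint of replicate 1 and 24.5% under one of replicate 2, beside 14.99% and 27.3% of all such matches in shared DHSs. The share under a footprint was therefore close to that of the genome. The DHS of 939 bp downstream of the Snrpn start, chr7:60003981-60004919, held 8 matches, and only 3 shared DHSs of the genome held 8 or more. Its signal values were low, at 0.514 and 1.42.

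Few accessible sites held as many YY1 matches as those of Peg3. Of the 12, 10 lay inside shared DHSs, in 3 blocks: chr7:6727401-6728000 with 4 (signal 1.18 and 4.16), chr7:6728343-6728940 with 4 (0.971 and 4.62) and chr7:6729361-6729800 with 2 (1.35 and 6.30). Only 6 shared DHSs of the genome held 4 or more. A footprint of replicate 1 lay over 4 of the 10, of replicate 2 over 7, and of both over 3. Over all shared DHSs a footprint lay over 27.1% of YY1 matches in replicate 1 and 39.1% in replicate 2. Peg3, which encodes a zinc finger protein of maternal behaviour and energy balance, and Usp29, a deubiquitinase gene, are transcribed away from each other from here.

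A larger share of these 36 imprinted genes than of all genes had an accessible promoter. That is a description without a test, and it does not allow for CpG content. A shared DHS reached within 1 kb of a start in 26 of 36 genes (72.2%, exact 95% interval 54.8 to 85.8%), beside 44.3% of all 32093 genes. Among protein-coding genes the count was 23 of 29 (79.3%, 60.3 to 92.0%), against 55.7% of 21938 genes. Of the 7 non-coding RNA genes, Kcnq1ot1, Meg3 and Peg13 had one (42.9%, 9.90 to 81.6%), beside 19.6% of 10155. With a lenient call in both libraries as the rule, 26 of 29 protein-coding genes had one (89.7%), against 61.8%. In the strict list alone, replicate 1 had a call at 24 of 29 (82.8%, against 57% of protein-coding genes) and replicate 2 at 25 of 29 (86.2%, against 60.2%).

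Split by CpG content, the share was above the background for CpG-poor protein-coding starts, while for CpG-rich starts the interval included the background. Of the 23 protein-coding imprinted genes with a CpG-rich start (ratio of observed to expected CpG of 0.6 or more within 500 bp), 18 had a shared promoter DHS (78.3%, exact 95% interval 56.3 to 92.5%), beside 90.4% of all such genes. Of the 6 with a CpG-poor start, 5 had one (83.3%, exact 95% interval 35.9 to 99.6%), beside 20.1%. All 7 non-coding genes were CpG-poor by this measure, and 3 had a DHS (42.9%), beside 8.86% of CpG-poor and 82.2% of CpG-rich non-coding genes. The CpG-poor protein-coding genes with a promoter DHS were Zim1, Snrpn, Magel2, Impact and Trappc9, and the 1 without was Ndn. The measure can miss CpG-rich DNA beside a start. Within 2 kb the best 500 bp stretch had a ratio of 0.750 at Snrpn, 0.877 at Impact and 1.10 at Kcnq1ot1. It was 0.894 at Peg13 and 0.850 at Airn. The backgrounds were not measured over that width, so they may not match these genes.

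**Figure D3:**
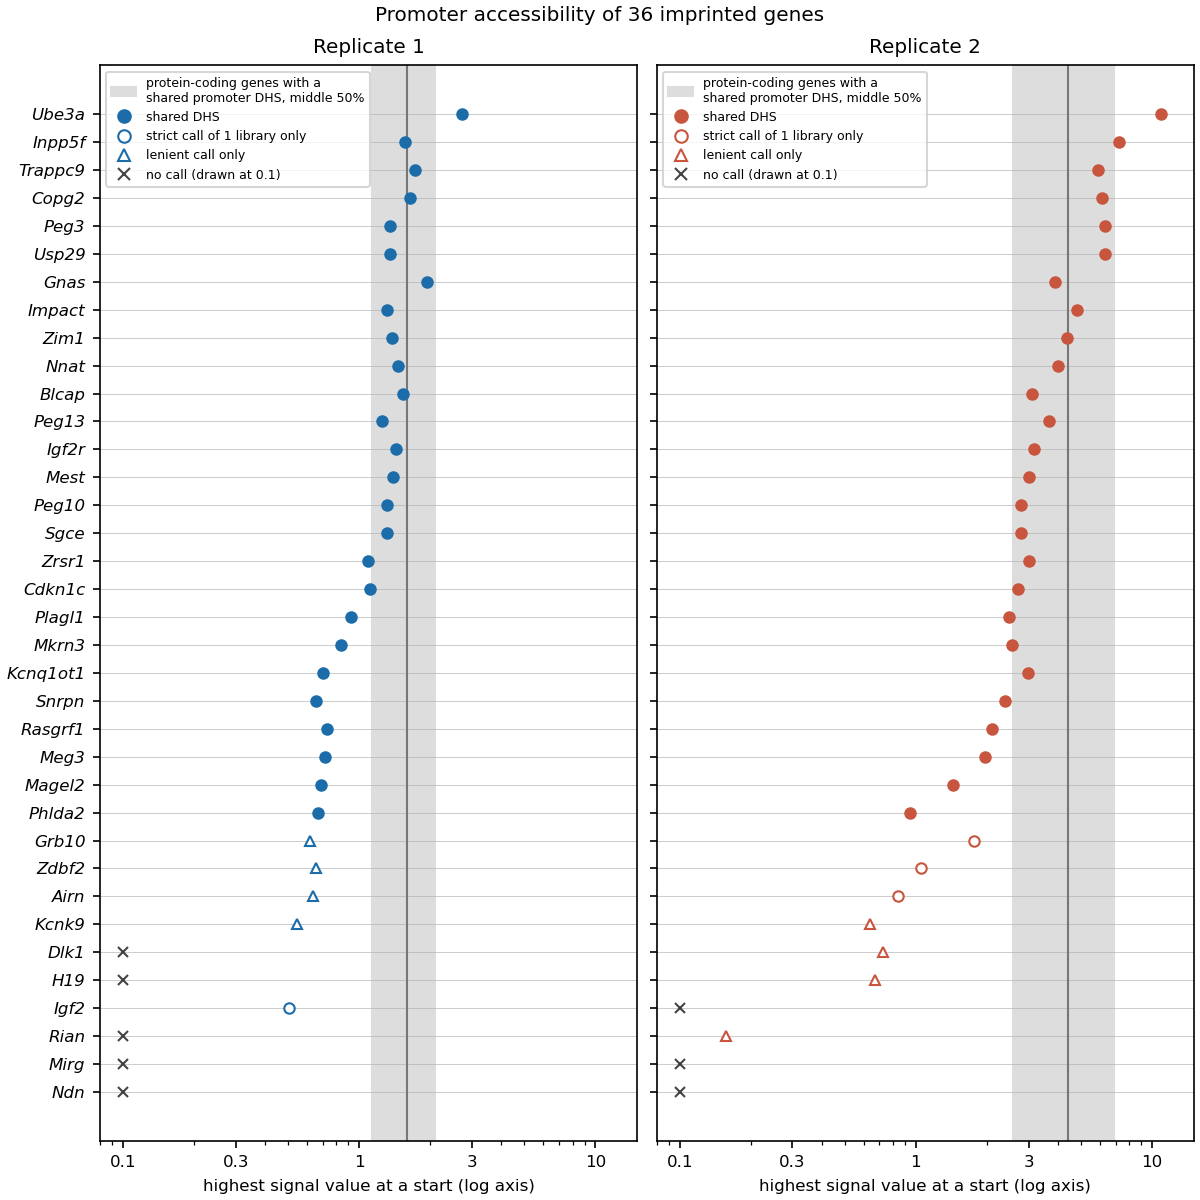
Highest signal value (log axis) of the shared DHS, or else call, that reaches within 1 kb of a start of each of the 36 imprinted genes, in replicate 1 (left) and replicate 2 (right). Symbols are as in the plot of control windows, the grey band is the middle 50% of protein-coding genes with a shared promoter DHS, and the line is their median. Most imprinted genes lie left of that line, with Ube3a right of the band in both libraries.

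Signal at the accessible promoters was in the middle of the range or below it. Over the 26 genes the strongest promoter DHS had a median signal value of 1.31 in replicate 1 and 3.06 in replicate 2. The strongest promoter DHS of protein-coding genes with one had medians of 1.59 and 4.41. As a rank among all 14589 promoter DHSs, the medians were 48.6% and 46.2% for imprinted genes, and 61.8% and 62.0% for protein-coding genes. The 14 genes with a start inside a control window had median ranks of 48.6% and 49.9%, and the other 12 had 44.7% and 44.0%. For Gnas and Inpp5f, which are among the 14, the strongest DHS lay at a start outside the window. Peg3 and Usp29 enter with the same DHS, as do Peg10 and Sgce.

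Ube3a had the strongest promoter of all 36. It encodes a ubiquitin ligase and is expressed in neurons from the maternal copy, although its own promoter carries no imprint. Its DHS at chr7:59228481-59228880 had 2.72 in replicate 1 and 10.9 in replicate 2, above 94.3% and 96.0% of promoter DHSs. Genes expressed from both copies in much of the body stood next to it by the geometric mean of both libraries. Inpp5f had 1.56 and 7.22, Copg2, a subunit of the coatomer of Golgi transport, 1.64 and 6.15, and Trappc9, a protein of vesicle tethering, 1.73 and 5.92. Gnas, the stimulatory G protein subunit, had 1.94 and 3.88 at its principal start, which ranked it above 76.3% of promoter DHSs in replicate 1 but above 56.4% in replicate 2.

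Several paternally expressed genes have their start in a control region, and of these Peg3 and Usp29 stood above Copg2 and Trappc9 in replicate 2. Peg3 and Usp29 shared a pair of DHSs, the stronger with 1.35 and 6.30. Impact, a regulator of translation that neurons express highly, had 1.31 and 4.79 in a DHS that reached into its promoter window from the intron, and 0.995 and 2.39 in the calls within that window. Nnat, a small membrane protein of the developing brain, had 1.46 and 3.99, and its NRF1 palindrome lay 58 bp upstream of the start. The neighbour Blcap, inside whose intron Nnat lies, had 1.53 and 3.09.

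Mest, an enzyme of the hydrolase fold, had maxima of 1.40 and 3.02 in different DHSs, and 1.14 and 3.02 in the DHS at its start. The DHS between Peg10, a gene derived from a retrotransposon, and Sgce, the epsilon subunit of the sarcoglycan complex, had 1.31 and 2.79. Peg13, a non-coding RNA inside Trappc9, had 1.25 and 3.66. Zrsr1, a retrogene of a splicing factor, had 1.09 and 3.01, in a DHS 940 bp downstream of the annotated start, at the NRF1 palindrome. Plagl1, a zinc finger regulator of growth, had 0.925 and 2.47 in a DHS of 798 bp with 4 TGCCGC matches.

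Maternally expressed growth restrainers were accessible at moderate to low levels. Igf2r, which removes insulin-like growth factor 2, had 1.43 and 3.17. Cdkn1c, an inhibitor of the cell cycle, had 1.12 and 2.70. Phlda2, known for restraining placental growth, had 0.672 and 0.945, the lowest of the 26 genes by the geometric mean of both libraries when each is taken by its strongest promoter DHS. These values stood above 9.003% and 5.84% of promoter DHSs. Zim1, a zinc finger gene next to Peg3, had 1.37 and 4.35. Meg3, the maternally expressed RNA of the Dlk1 locus, had 0.715 and 1.96, and its DHS held the sequence TGACGTCA (the cAMP response element, CRE) 66 bp upstream of the start with no footprint over it.

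The paternally expressed genes of the Prader-Willi region ranged from weak DHSs to none. Mkrn3, a ring finger gene linked to the timing of puberty, had 0.836 and 2.56. Magel2, of the MAGE family, had 0.691 and 1.43 in a DHS of 857 bp. Snrpn, which encodes a protein of the spliceosome, had 0.658 and 2.37, the lowest value of the 26 genes in replicate 1 and a value above 36.2% of promoter DHSs in replicate 2. Ndn, the MAGE-family gene necdin, had no call of any list within 1 kb of its start. A DHS at chr7:62348181-62348660, in its single exon and 1852 bp from the start, had 0.897 and 3.45, above 43.6% and 85.1% of distal DHSs.

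Kcnq1ot1, the RNA that silences neighbouring genes on the paternal copy, had 0.700 and 2.98. Rasgrf1, an exchange factor of Ras in neurons, had 2 weak DHSs with at most 0.733 and 2.10. Replicate 2 exceeded replicate 1 in all of these values, and the median ratio over the 39 promoter DHSs of imprinted genes was 2.75, beside 2.46 over all promoter DHSs. The scaling of the values is not given in the sources used here, so the ratio describes the files and not the animals.

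The 10 genes without a shared promoter DHS fell into those with calls in 1 library or in the lenient lists and those with next to none. Grb10 (1.76), Zdbf2 (1.05) and Airn (0.843) had a strict call in replicate 2 and a lenient call in both libraries. Kcnk9, a potassium channel, had lenient calls in both, at 0.546 and 0.638. Igf2, the paternally expressed fetal growth factor, had 4 strict calls in replicate 1 with at most 0.504, and replicate 2 had no call of any list within 1 kb of its 5 starts.

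Within 1 kb of a start, H19, its reciprocal maternal RNA, had a lenient call of 0.670 in replicate 2 alone, and Dlk1, a Notch-ligand-like protein, one of 0.725. Rian, which hosts small nucleolar RNAs, had a lenient call of 0.158 in replicate 2. Mirg, which hosts microRNAs, and Ndn had no call of any list within 1 kb of a start in either library. The 10 genes thus included both ends of the Igf2 and H19 pair, and 3 of the 4 genes between Dlk1 and Mirg.

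Promoter DHSs of imprinted genes had a median width of 400 bp, and so had all promoter DHSs. A footprint of each library lay in 33 of 39 (84.6%), beside 89.2% of all promoter DHSs. A TGCCGC match stood in 20 of 39 (51.3%, exact 95% interval 34.8 to 67.6%), beside 35.9%. YY1 matches stood in 5 of 39 (12.8%), beside 11.6%, NRF1 matches in 2 (5.13%), beside 2.28%, and CRE matches in 2 (5.13%), beside 3.65%. The E-box CAGATGG of neuronal basic helix-loop-helix factors stood in 1 (2.56%), beside 4.74%. None held a CTCF consensus match (0 of 39, which allows a share of up to 9.03% by the exact interval), beside 1.54%. Motifs were searched on both strands as exact strings, and a match is a description of the sequence.

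Away from promoters the imprinted loci held 49 distal shared DHSs, of which 30 were in introns, 13 in intergenic DNA and 6 in exons. Of the 49, 2 had their centre within 1 kb of the start of a non-coding gene outside the 36, Nespas and Gm45121, and count as distal because only protein-coding and the 36 imprinted genes defined promoters. The density of the 49 was 10.3 per Mb, against 5.80 per Mb around all protein-coding genes. Part of that excess was made of weak calls: 12 of the 49 (24.5%) had a signal value under 0.3 in replicate 1, beside 2.06% of all distal shared DHSs. When weaker calls than that were dropped, a choice made with these values in view, the density was 7.75 per Mb in the imprinted loci and 5.66 per Mb around protein-coding genes. In the strict list of a single library the density was 45.7 per Mb in replicate 1 and 31.0 per Mb in replicate 2, against 18.6 and 12.7 per Mb around protein-coding genes. The 12 weak sites stood in only 2 places, 9 nearest the Peg13 start and 3 nearest the Dlk1 start.

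**Figure D4:**
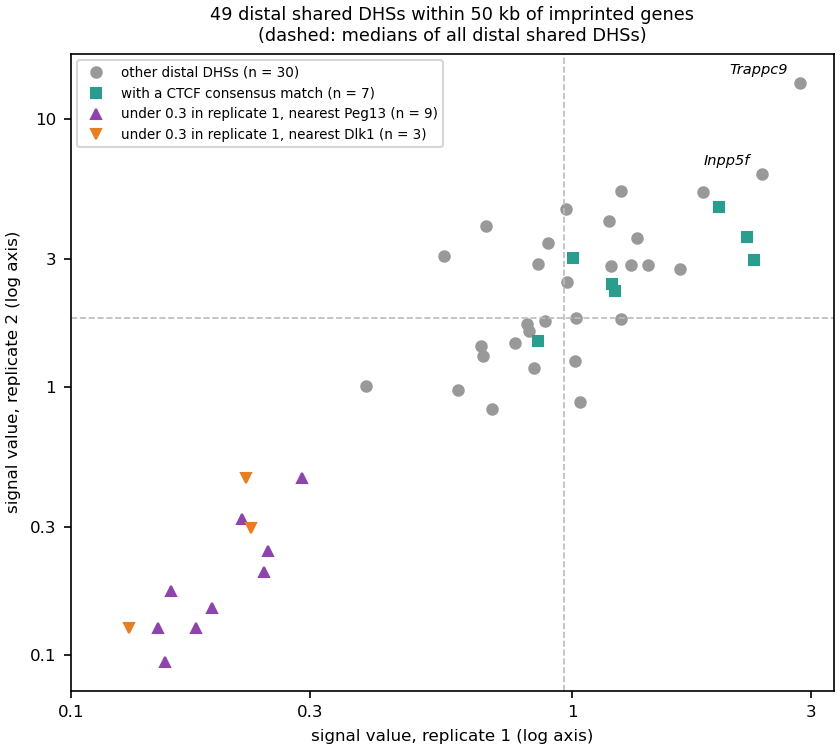
Signal value of the 49 distal shared DHSs in replicate 1 (x axis) and replicate 2 (y axis), both on log axes, with the medians of all distal shared DHSs as dashed lines. The 12 sites nearest Peg13 and Dlk1 form a group of their own below 0.3 in replicate 1, and the DHSs upstream of Trappc9 and inside Inpp5f have the highest mean values.

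By the median, the signal of the 49 distal DHSs was 0.855 (replicate 1) and 1.76 (replicate 2), beside 0.962 and 1.80 for all distal shared DHSs. Among DHSs at or above 0.3 in replicate 1 the order was the other way, with medians of 1.01 and 2.75 for the 37 of the loci, beside 0.971 and 1.83 for all. The strongest, chr15:73067461-73067820, had 2.85 and 13.6, above 98.5% and 99.7% of distal DHSs. It lies 6437 bp upstream of the Trappc9 start, and the annotation has no gene there. Next by mean value came the Inpp5f intron (2.40 and 6.23) and the Nespas DHS (1.83 and 5.35) given above. An intronic DHS of Usp29, chr7:6918361-6918560, had 1.97 and 4.69.

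An intergenic DHS beyond Blcap, chr2:157605121-157605320, nearest to the non-coding gene Platr27, had 2.23 and 3.61. A DHS 5451 bp upstream of Cdkn1c, chr7:143466381-143466620, had 2.31 and 2.97. The Peg10 intron (chr6:4749121-4749360) had 1.25 and 5.37, and the block of 4 YY1 matches in Peg3 (chr7:6727401-6728000) had 1.18 and 4.16. A Trappc9 intron (chr15:73022981-73023200) had 1.34 and 3.58, and an intron of Kcnq1 next to Kcnq1ot1 (chr7:143153941-143154260) had 1.64 and 2.75. These 10 DHSs were picked by the geometric mean of their signal values, so their ranks above the middle of the distal DHSs follow largely from that choice.

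A CTCF consensus match stood in 7 of the 49 (14.3%, exact 95% interval 5.94 to 27.2%), beside 19% of all distal shared DHSs. In single libraries it was 7 of 218 distal calls of replicate 1 (3.21%) and 9 of 148 of replicate 2 (6.08%). The share over all distal calls of a single library was not computed, so these 2 shares have no background. They cannot be set against the 19%. The 7 shared sites lay in the Blcap and Nnat locus (1), in Usp29 (2), upstream of Cdkn1c (2), upstream of Kcnk9 (1) and upstream of Trappc9 (1). All 7 were under footprints of both libraries, 23 to 41 bp long in replicate 1 and 27 to 39 bp in replicate 2. Across all distal shared DHSs 97.3% of CTCF matches were. TGCCGC matches stood in 4 of the 49 (8.16%), beside 12.5%, YY1 matches in 5 (10.2%), beside 4.49%, NRF1 matches in 1 (2.04%), beside 0.394%, and the E-box in 6 (12.2%), beside 9.44%. No CRE match stood in the 49, beside 0.902%. In the H19 and Igf2 locus no shared DHS held the consensus or the H19-type site.

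Footprints of each library were found in 39 of the 49 distal DHSs (79.6%), beside 93.5% of all distal DHSs. Of the 10 DHSs without, 8 were among the weak sites under 0.3. Of the 37 others, 94.6% had a footprint of each library, beside 94.8% of all distal DHSs at or above 0.3.

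The loci differed in how many distal sites they held. The locus of Kcnk9, Trappc9 and Peg13, 660.1 kb long, had 14, and 9 of these were the weak sites. The loci of H19 and Igf2, of Cdkn1c and Phlda2, of Peg3 and its neighbours, and of Dlk1 to Mirg had 4 each. There were 3 each at Gnas, Inpp5f and Impact. No distal shared DHS was found at Ube3a, Plagl1, Zrsr1, Rasgrf1 or Zdbf2, and the Zdbf2 locus had no shared DHS at all. Per gene the median was 1 distal DHS in the territory for imprinted genes and 1 for protein-coding genes, or 0.958 and 0.526 per 100 kb.

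Weak calls were concentrated in some of the imprinted loci, and their number differed between the libraries in several genes. Of 305 strict calls of replicate 1 in the 21 loci, 59.3% had a signal value under 0.3, beside 42.5% of all its calls. In replicate 2 the share was 26.5% of 223 calls, beside 2.39%. These pooled shares do not describe each locus. Of the 181 weak calls of replicate 1, 40 lay in the Rasgrf1 locus and 36 in the Peg3 locus. The locus of Dlk1 to Mirg had 35 and that of Blcap and Nnat 23. Loci such as those of Gnas, Inpp5f and Snrpn had none in either library. The body of Rasgrf1 had 39 strict calls in replicate 1, of which 33 were under 0.3, and 2 calls in replicate 2, both above it. The body of Peg3 had 23 calls in replicate 1, 18 of them under 0.3, and 6 in replicate 2, none of them weak.

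Trappc9 was the reverse, with 48 calls in replicate 2, 35 of them under 0.3, and 21 in replicate 1, 15 of them weak. Rian had 11 calls in replicate 1, 10 of them weak, and 1 in replicate 2. Of the 59 weak calls of replicate 2 in all loci, 35 lay in the locus of Kcnk9, Trappc9 and Peg13 and 22 in the locus of Dlk1 to Mirg. Whether these stretches differ between the animals or between the libraries cannot be told apart, since each animal gave 1 library.

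**Figure D5:**
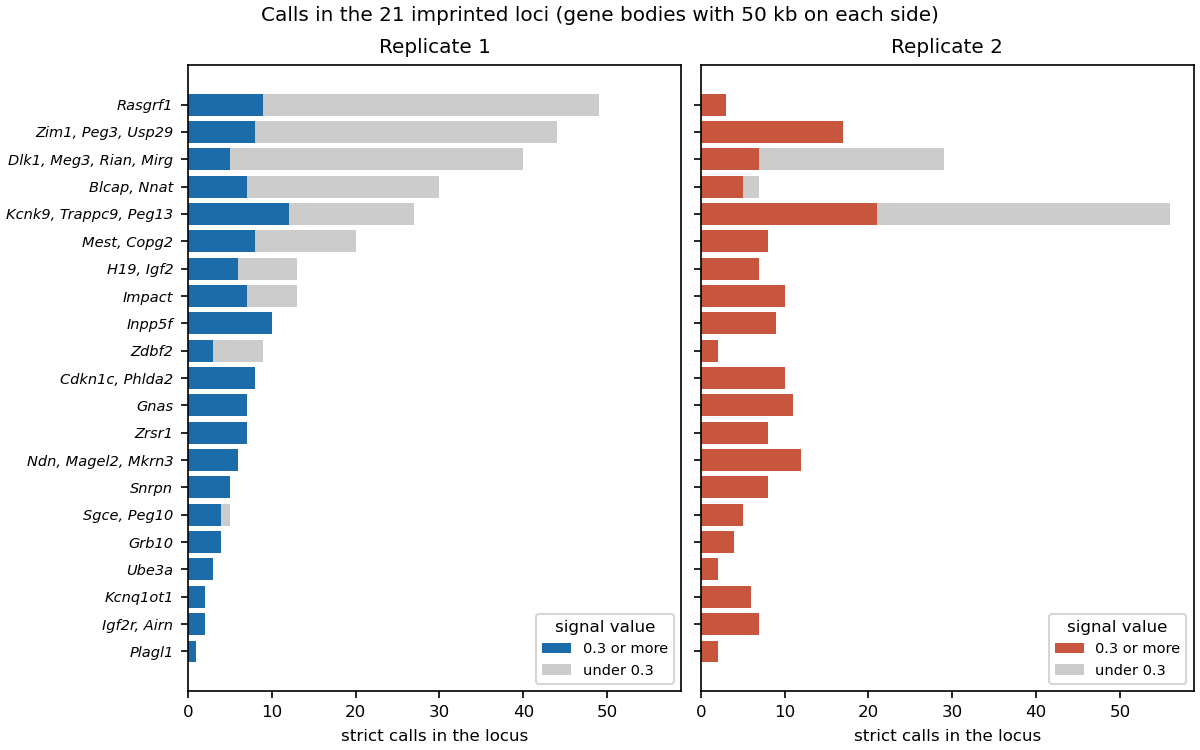
Number of strict calls in each of the 21 imprinted loci, coloured where the signal value was 0.3 or more and grey where it was lower, in replicate 1 (left) and replicate 2 (right). Grey calls fill most of the Rasgrf1, Peg3, Dlk1 and Nnat loci in replicate 1 and of the Trappc9 and Dlk1 loci in replicate 2.

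Genes of the machinery that sets and keeps imprints were also inspected. Of 17 such genes 13 had a shared promoter DHS (the 55.7% of protein-coding genes is the background), among them the DNA methyltransferases Dnmt1, Dnmt3a and Dnmt3b, the zinc finger genes Zfp57 and Zfp445 that recognise methylated control regions, their partner Trim28, and Ctcf and Yy1. Zfp57 had 1.18 in replicate 1 and 1.84 in replicate 2, Trim28 had 2.84 and 8.59, and Dnmt1 had 2.39 and 9.70. Dnmt3l and Dppa3, known from germ cells and early embryos, Ctcfl, the germline relative of Ctcf, and Tet1 had no call of any list within 1 kb of a start. Of 28 further imprinted genes 17 had a shared promoter DHS, a share close to the 55.7% of protein-coding genes. Calcr, Ddc, Dio3, Gpr1, Kcnq1, Rtl1, Slc22a18, Slc22a2, Slc22a3, Slc38a4 and Zim3 had none.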

How the data were processed

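The authors called peaks, footprints and the false discovery rate of the cut rate separately for each library against mm10, per the file headers and the labels. Aligner, caller and options were not given in the sources used here. Deposited peak lists give a signal value per call, of unstated scaling. In each library all values tested, those under 100 steps, were whole multiples of a step (0.00467 in replicate 1 and 0.00788 in replicate 2, within 0.05 of a step), so a step would be 1 tag per 1000000 at depths of 214.1 and 126.9 times 1000000 tags. That depth is inferred from the values. The deposited cut-rate file lists false discovery rates (q-values) under 0.05, and the deposited footprints carry 0.01 on every line, used as a label for a p-value threshold.

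With Python 3.11.15, calls were merged into shared DHSs by an overlap of 1 bp, and set against GENCODE M21 basic transcripts (GRCm38). Promoter DHSs reached within 1 kb of a start of a protein-coding gene or one of the 36 imprinted genes. The rest, including DHSs at other non-coding starts such as Nespas, are called distal. Overlaps and motif search were tested on simulated data. The design has 1 group of 2 libraries, so no test between groups was run; shares carry exact 95% binomial intervals beside their background. The members, gene lists, motifs and windows were chosen with earlier results of these data known. All 36 genes, every control window and the 10 distal DHSs with the highest geometric mean of the signal values are named, and other genes as neighbours or list members. Sequences come from the RefSeq copy of GRCm38. Some marker genes of cortical neurons are not reported here.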

Additional observations from a re-analysis of the deposited data

How the results depend on the processing

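The count of imprinted genes with a shared promoter DHS kept within 1.5 times of 26 under every alternative tried, from 19 with the strongest 20000 calls of each list to 30 with the lenient lists. The genes lost with the strongest 20000 calls were Snrpn, Magel2, Mkrn3, Kcnq1ot1, Phlda2, Meg3 and Rasgrf1. Protein-coding imprinted genes gave 18 with the strongest 20000 calls (62.1%, against 47% of all protein-coding genes). They gave 26 with the lenient lists (89.7%, against 61.5%). Control regions gave 12 to 17. For control regions and for all 36 genes no background was computed under the alternatives. Leaving out a replicate gave 27 to 29 genes, 24 to 25 protein-coding genes (82.8% to 86.2%, against 57% to 60.2%) and 16 control regions. The distal density of 10.3 per Mb was 19.9 with the lenient lists, 5.86 with the stronger 50% of each list and 4.61 with the strongest 20000 calls. Around protein-coding genes it was 12.1, 3.87 and 2.90 per Mb under the same settings. The imprinted density of 10.3 per Mb also depended on the replicates. It was moved by leaving out a replicate, to 31.0 per Mb without replicate 1 and 45.7 per Mb without replicate 2, against 12.7 and 18.6 per Mb around protein-coding genes. The share of distal DHSs with a CTCF match was 27.3% with the strongest 20000 calls and 3.21% to 6.08% when a replicate was left out. The share of promoter DHSs with a footprint of each library was 95.7% with the strongest 20000 calls and 72.5% to 80.4% in single libraries. Under these settings the shares with a CTCF match or a footprint were not computed over all DHSs, so they have no background. The cause of these shifts was not tested. No paired analysis was possible because there is 1 group. With 2 libraries of unequal implied depth, weak sites seen in 1 library may be missed in the other.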
